A study of Mus musculus with 6 samples.

Results

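The 36 genes described here are genes of macrophage identity, scavenging, lysosomes and lipid handling, together with genes that were higher alongside them in sorted mouse regulatory T cells labelled as knocked out for Bcl11b. They were chosen by name because they had been seen to be higher in the KO than in the WT libraries of these same tables, so their difference between KO and WT is given as a description. Where a count of genes past a threshold is given for KO against WT, it stands beside the share of all genes past it, and nothing is read from it. All 36 were found among the 24424 genes of the deposited count table. The series examined how the transcriptome of regulatory T cells changes when Bcl11b, a zinc finger transcription factor of T cells, is removed. RNA was sequenced in 2 libraries of each of 3 groups of regulatory T cells that had been sorted out of spleens and peripheral lymph nodes. The WT group is labelled with the strain Bcl11bF/F, at steady state. The KO group is labelled KO, with the strain Bcl11bF/WT Foxp3YFP-Cre +/-, also at steady state. The KO EAE group carries the same genotype and strain labels and came from mice with EAE, experimental autoimmune encephalomyelitis, a model of multiple sclerosis. A floxed allele is one that Cre recombinase can cut, and here Cre is driven by Foxp3, the lineage factor of regulatory T cells. The strain label of the KO groups names 1 floxed and 1 wild-type allele, which goes against the genotype label KO; the groups are called by their genotype labels here. No WT group with EAE was included, so in KO EAE against WT the effects of the label KO and of EAE cannot be told apart. The labels do not say whether the libraries of a group came from separate animals, nor give ages, so p-values measure only the spread between these libraries.

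The spleen holds several kinds of resident macrophage. Red pulp macrophages clear aged red blood cells and recycle their iron, marginal zone macrophages take up particles and microbes from the blood, and metallophilic macrophages at the edge of the white pulp carry the sialic acid receptor CD169. Most tissue macrophages depend on signalling through the CSF1 receptor. Cells that die in the spleen are taken up through receptors such as MERTK and AXL, bridged to phosphatidylserine by GAS6, and are then degraded in lysosomes whose proteases include the cathepsins. None of these programmes belongs to the known core identity of regulatory T cells.

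Promoter sequence is shown for the members in which a short motif of a macrophage or lysosome factor was found wholly upstream of the start site, because these letters are a feature that the choice of genes did not use. RefSeq promoter windows of build GRCm38.p6, from 250 bases before to 50 bases after the start site, were matched for 26 of the 36 genes. The core letters AGGAAGT, searched on both strands as the core of the site of PU.1, the master factor of macrophages, were in the windows of 5 of these 26 genes and of 10.7% of 27025 genes with a window. The longer form GAGGAAGT, which contains the core, was in 1 of the 26, Slco2b1, and in 3.69% of all genes. In the stretches that follow, capitals mark the core, which is read on the opposite strand in Lyz2 and Mrc1 and therefore appears there as its reverse complement. The first base of the match lay 100 bases before the start site in Lyz2, 211 in Mrc1 and 62 in Mmp13; the matches of Pilra and Slco2b1 lay after the start site and are not printed.
Lyz2, chr10:117282339-117282398, minus strand: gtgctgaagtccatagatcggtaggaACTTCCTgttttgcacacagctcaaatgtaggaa
Mrc1, chr2:14229177-14229236, plus strand: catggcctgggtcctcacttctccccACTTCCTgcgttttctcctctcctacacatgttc
Mmp13, chr9:7272426-7272485, plus strand: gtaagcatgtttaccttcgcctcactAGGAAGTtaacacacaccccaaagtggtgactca

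The E-box CACGTG, bound by the MITF and TFE factors that control lysosomal genes, reads the same on both strands. It was in the windows of 3 of the 26 genes, Ctsd, Lgmn and Tnfrsf21, and of 8.09% of all genes. Ctsd held it at 2 places, 245 and 98 bases before the start site, and Lgmn 49 bases before it. These start sites are those of RefSeq. In GENCODE M21 the minus-strand genes Lgmn and Ctsd begin at 102439813 and 142388038. The Lgmn match and the Ctsd match at 98 bases therefore lie inside the genes as annotated there. The longer CLEAR element of lysosomal genes, which contains the E-box, was in none of the 26 windows and in 0.37% of all genes. The match of Tnfrsf21 began 5 bases before the start site and ran across it, and is not printed. Capitals mark the E-box in the stretches of Lgmn and Ctsd. A match is a description of the letters and shows neither binding nor control.
Lgmn, chr12:102439124-102439153, minus strand: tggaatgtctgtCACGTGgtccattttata
Ctsd, chr7:142388048-142388077, minus strand: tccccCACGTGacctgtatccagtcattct
Ctsd, chr7:142387908-142387937, minus strand: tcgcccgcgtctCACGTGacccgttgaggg

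The count table held between 14663542 and 16904312 reads per library, so that 3 reads, taken as the floor of detection, corresponded to 0.177 to 0.205 counts-per-million (CPM). Levels are given as CPM of the library total. The summed CPM of 10 T cell markers lay between 1831 and 1918 in all 6 libraries, so the T cell label of the sort holds by these markers. Of 10 regulatory T cell markers, 7 fell in KO EAE against WT, and all 10 had a log2 change below 0. One library stood apart. KO EAE replicate 2 had a summed CPM of 574 for 6 monocyte markers, against 169 to 241 in the other 5 libraries, and of 113 for 9 neutrophil markers, against 3.15 to 19.0. Results in KO EAE that move with it are given with and without it.

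The set was read beside 8 markers of red pulp and marginal zone macrophages that are not members. Spic, the factor that red pulp macrophages depend on, was at 6.42 and 6.18 CPM in WT, 76.8 and 80.5 in KO, and 54.1 and 75.6 in KO EAE. Slc40a1, the iron exporter ferroportin, was at 42.9 and 50.1 CPM in WT, 313 and 323 in KO, and 273 and 283 in KO EAE. Cd163, the haptoglobin-haemoglobin receptor, was at 5.57 and 8.79, 144 and 171, and 88.0 and 110 CPM. The WT libraries were lowest for each of these 3 markers. The 8 markers were listed with earlier results of these data known, so this describes levels and does not test the macrophage label. Cd209b, a lectin of marginal zone macrophages, was far lower and scattered, at 0.545 and 0.242 CPM in WT, 3.67 and 5.18 in KO, and 0.828 and 8.18 in KO EAE. In bulk RNA of sorted cells, fewer cells of a type and less RNA per cell cannot be told apart, and neither can RNA of other cells in the sort and transcription in the regulatory T cells themselves.

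Together the 36 genes took 934 and 977 CPM of the WT libraries, 4755 and 5364 of the KO libraries and 3939 and 4614 of the KO EAE libraries. The mean of the WT libraries was 956 ± 30.8 CPM (SD, n = 2), that of the KO libraries 5060 ± 430, and that of the KO EAE libraries 4277 ± 478. The summed level was therefore 5.29-fold higher in KO than in WT and 4.48-fold higher in KO EAE than in WT, and the ranges of KO and KO EAE lay next to each other without overlapping. At its highest the set took 0.536% of the reads of a library. The plot of levels by library shows all 36 genes.

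**Figure D1:**
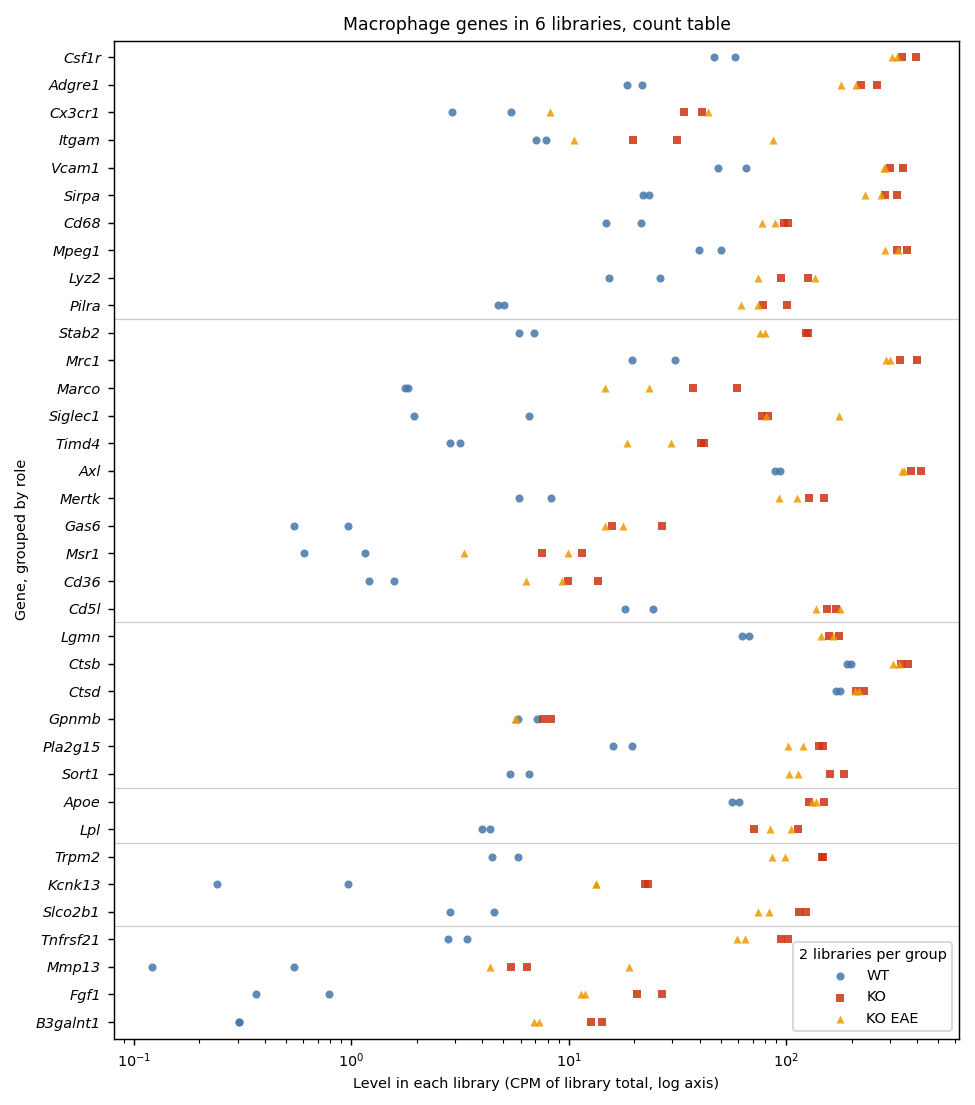
Level of each of the 36 genes in each library of the count table, in CPM of the library total on a log axis, grouped by role; circles are WT, squares KO and triangles KO EAE, with 2 libraries per group. Both KO libraries lie above both WT libraries for all 36 genes, from 1.23-fold for Gpnmb to 44.4-fold for B3galnt1, and the widest gaps between KO EAE libraries are those of Itgam and Cx3cr1.

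In KO against WT both KO libraries exceeded both WT libraries for all 36 genes; of all 14548 genes tested, 38.9% did so. In the edgeR quasi-likelihood fit 32 of the 36, and 9.41% of all genes tested, were past an adjusted p of 0.05 in the higher direction. The choice of genes used this contrast and fixes both counts, so neither is a test of the set. The fold change of the mean CPM had a median of 12.7 over the 36 genes and ranged from 1.23 to 44.4. It was 8 or more for 23 genes, between 2 and 8 for 10, and under 2 for Ctsb, Ctsd and Gpnmb.

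Among the identity and surface receptors, Csf1r, the receptor for the growth factors CSF1 and IL-34, was at 46.6 and 58.1 CPM in WT, 339 and 395 in KO, and 308 and 324 in KO EAE. Adgre1, the classical surface antigen of mouse macrophages, was at 21.7 and 18.5, 222 and 262, and 179 and 209 CPM. For both genes the WT libraries were the lowest and the KO libraries the highest, with no overlap between groups. Vcam1, an adhesion molecule carried by red pulp macrophages as well as by endothelium, was at 48.4 and 65.4 CPM in WT, 301 and 343 in KO, and 283 and 285 in KO EAE. Of 9 endothelial markers, Pecam1, which leukocytes also make, was at 182 to 207 CPM in every library, and the other 8 reached at most 6.48 CPM. Cd68, a late endosomal protein of macrophages, was at 14.8 and 21.5, 97.5 and 101, and 77.6 and 88.6 CPM. Lyz2, which encodes lysozyme of macrophages and neutrophils, was at 26.3 and 15.3 CPM in WT, 94.4 and 126 in KO, and 73.9 and 136 in KO EAE; KO EAE spanned the KO values. Lyz2 has a near-identical neighbour, Lyz1, and the way such reads were divided is not given in the sources used here.

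Cx3cr1, the fractalkine receptor, and Itgam, the alpha chain of the integrin Mac-1, are shared with monocytes and, for Itgam, neutrophils. Cx3cr1 was at 5.45 and 2.91 CPM in WT, 33.8 and 40.9 in KO, and 8.21 and 43.5 in KO EAE. Itgam was at 7.09 and 7.88 CPM in WT, 19.7 and 31.5 in KO, and 10.6 and 87.3 in KO EAE. For both genes the high KO EAE value came from replicate 2, the library with the high monocyte and neutrophil markers, whose part in these values was not tested. The other members of this group, Sirpa, which delivers the inhibitory signal of CD47, Mpeg1, a pore-forming protein of phagocytes, and Pilra, an inhibitory receptor, were 7.60-fold to 18.4-fold higher in KO than in WT.

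The scavenger and apoptotic cell receptors had a median fold change of 14.6 between KO and WT, with a range of 4.33 to 28.1. Stab2, the hyaluronan and phosphatidylserine receptor stabilin-2 (chromosome 10, 86841198 to 87008025, minus strand, mm10), was at 5.93 and 6.91 CPM in WT, 126 and 123 in KO, and 75.9 and 80.0 in KO EAE. Marco, a scavenger receptor of marginal zone macrophages (chromosome 1, 120474538 to 120505024, minus strand), was at 1.82 and 1.76, 37.3 and 59.3, and 14.71 and 23.4 CPM. In both genes the 3 groups were fully separated, with KO EAE between WT and KO. Siglec1, the sialic acid receptor CD169, was at 6.54 and 1.94 CPM in WT, 82.8 and 77.4 in KO, and 80.4 and 176 in KO EAE. Its WT libraries were more than 3-fold apart and 1 KO EAE library was above all others.

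Of the receptors for dying cells, Axl was at 88.7 and 94.0 CPM in WT, 374 and 417 in KO, and 341 and 349 in KO EAE. Mertk was at 5.93 and 8.30, 127 and 150, and 92.3 and 112 CPM. Axl was thus well above the floor in WT and 4.33-fold higher in KO, while Mertk was 19.4-fold higher. Gas6, their shared ligand, was at 0.545 and 0.970 CPM in WT, 26.7 and 15.9 in KO, and 17.7 and 14.75 in KO EAE, with KO and KO EAE overlapping. Msr1, the class A scavenger receptor, was at 1.15 and 0.606, 7.51 and 11.5, and 3.31 and 9.92 CPM. Cd36, a receptor for oxidised lipoproteins and fatty acids, was at 1.21 and 1.58, 9.88 and 13.6, and 6.37 and 9.34 CPM. Per kilobase of exon these 3 were the lowest of the group in KO, at 8.37, 1.495 and 3.28 CPM per kilobase. Cd5l, a secreted protein of tissue macrophages, was at 24.5 and 18.1 CPM in WT, 154 and 170 in KO, and 138 and 176 in KO EAE. Mrc1, the mannose receptor, and Timd4, a phosphatidylserine receptor of resident macrophages, were 14.6-fold and 13.7-fold higher in KO than in WT.

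The lysosome and sorting genes had a median fold change of 2.18 between KO and WT, with a range of 1.23 to 28.8. Ctsd, the aspartic protease cathepsin D, was at 170 and 176 CPM in WT, 210 and 228 in KO, and 208 and 215 in KO EAE, and Ctsb, the cysteine protease cathepsin B, was 1.80-fold higher in KO than in WT. Together with Gpnmb they were the 3 genes under 2-fold. Gpnmb, a glycoprotein of lipid-laden and tissue-repair macrophages, was at 7.15 and 5.82 CPM in WT, 7.63 and 8.32 in KO, and 5.67 and 5.73 in KO EAE. Sort1, the sorting receptor sortilin (chromosome 3, 108284082 to 108361511, plus strand), stood at the other end of this group with 5.39 and 6.54 CPM in WT, 159 and 184 in KO, and 104 and 114 in KO EAE. Lgmn, an asparaginyl endopeptidase, and Pla2g15, a lysosomal phospholipase, were 2.56-fold and 8.16-fold higher in KO.

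Apoe, the apolipoprotein through which macrophages export cholesterol, was at 61.0 and 56.2 CPM in WT, 128 and 150 in KO, and 132 and 137 in KO EAE. Lpl, lipoprotein lipase, was 21.99-fold higher in KO than in WT. Apoe had a substantial level in WT and a change of 2.37-fold; Lpl was at 3.997 and 4.36 CPM in WT.

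The channels and transporters had the narrowest range, between 28.6-fold and 37.7-fold. Trpm2, a calcium channel opened by oxidative stress (chromosome 10, 77907722 to 77970563, minus strand), was at 4.42 and 5.82 CPM in WT, 145 and 147 in KO, and 86.2 and 98.6 in KO EAE. Slco2b1, an organic anion transporter (chromosome 7, 99657804 to 99711340, minus strand), was at 2.85 and 4.55, 123 and 115, and 74.0 and 83.2 CPM. In both genes KO EAE lay between WT and KO without overlap. Kcnk13, a two-pore potassium channel, was 37.7-fold higher in KO than in WT.

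Of the 4 genes of other roles, Tnfrsf21, the death receptor DR6 (chromosome 17, 43016555 to 43089189, plus strand), was at 2.79 and 3.39 CPM in WT, 95.1 and 101 in KO, and 59.4 and 64.8 in KO EAE. Fgf1, an acidic fibroblast growth factor, was at 0.363 and 0.788, 20.6 and 26.9, and 11.3 and 11.9 CPM. B3galnt1, the enzyme that makes globoside (chromosome 3, 69574158 to 69598960, minus strand), was at 0.303 in both WT libraries, 12.7 and 14.2 in KO, and 7.32 and 6.89 in KO EAE. All 3 had KO EAE between WT and KO without overlap. Mmp13, a collagenase, was 17.8-fold higher in KO than in WT, with 1 WT library under the floor of 3 reads.

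Levels were ordered per kilobase of exon, which takes out exon length only. The order is that of the count table, and part of it differed in the normalized table described below. The KO libraries had Ctsd at 93.1 CPM per kilobase, Lyz2 at 83.8 and Cd5l at 79.3. Cd68, Mpeg1 and Axl followed at 79.2, 78.6 and 78.6 CPM per kilobase and did not differ from Cd5l beyond the spread of the 2 libraries. The KO libraries of Lyz2 also overlapped those of Ctsd and of Cd5l, so its place among them is not fixed. The lowest were Mmp13 at 2.22, Msr1 at 1.495 and Gpnmb at 1.22 CPM per kilobase. The WT order was led by Ctsd at 73.6, Ctsb at 32.2, Lgmn at 28.0 and Apoe at 27.4 CPM per kilobase, and Fgf1 was lowest at 0.105. The 4 leading genes of WT were thus 3 lysosomal proteases and an apolipoprotein, followed by Axl, Lyz2, Cd68, Cd5l and Mpeg1. Ctsd led both orders, and Cd5l, Cd68, Mpeg1 and Axl were among the first 6 of KO.

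KO EAE against KO is the comparison that the choice of genes did not use directly, although the KO libraries served that choice. In the edgeR test none of the 36 genes passed an adjusted p of 0.05 in KO EAE against KO, where 2 of 14548 genes (0.0137%) passed, both higher and 0% lower. At an unadjusted p under 0.05 there were 10 of the 36, and 9.47% of all genes tested. The log2 change was below 0 for 32 genes and above 0 for Itgam, Siglec1, Lpl and Mmp13; without KO EAE replicate 2 it was -1.24 for Itgam, 0.05 for Siglec1, -0.08 for Lpl and -0.41 for Mmp13. Its median was -0.32 over the 36 genes and 0.00 over all genes tested. Both KO EAE libraries lay below both KO libraries for 23 genes and above them for none, against 25.4% and 13.6% of all genes tested. Because the 36 genes were chosen for high values in the KO libraries, lower values in another group are favoured by that choice.

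**Figure D2:**
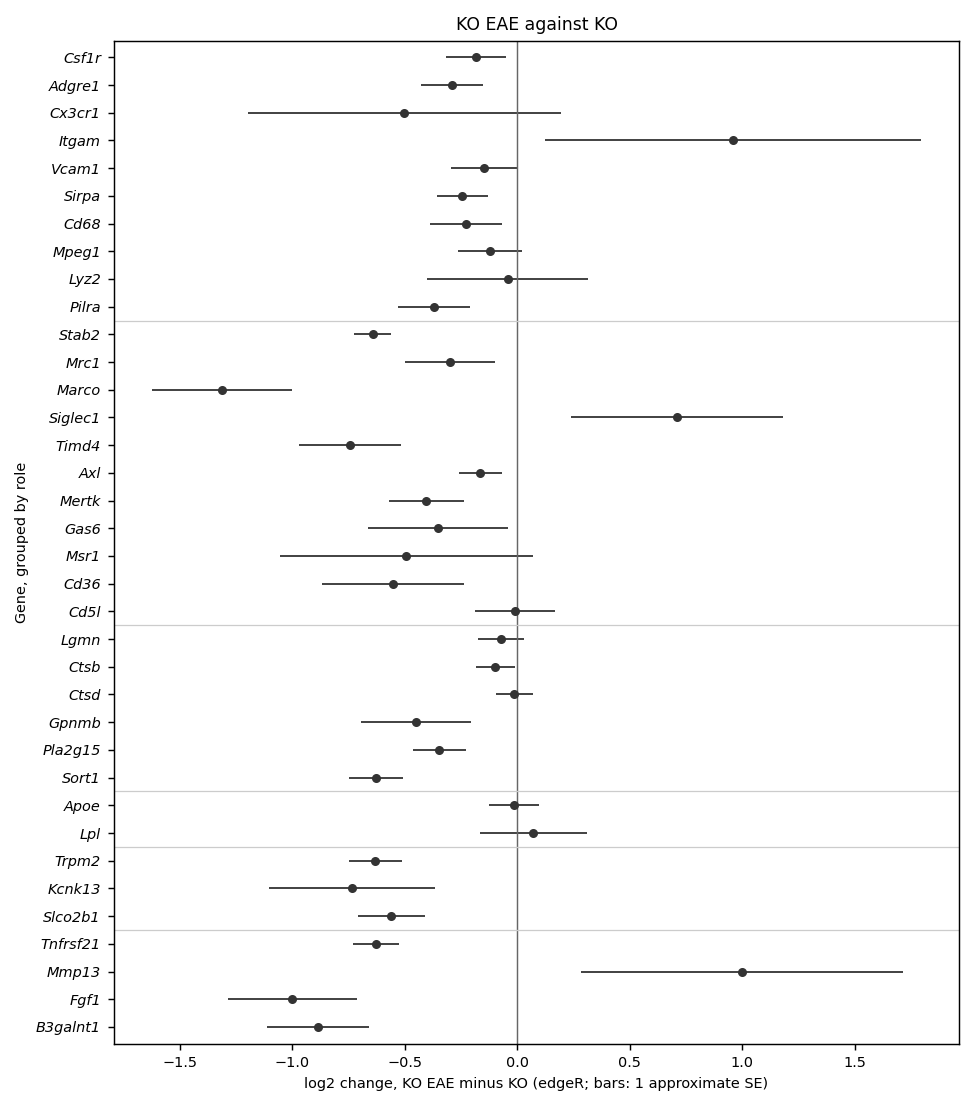
Log2 change of each gene in KO EAE minus KO, from the edgeR fit over all 6 libraries, with bars of 1 approximate standard error, grouped by role. Of the 36 points 32 lie below 0 and none passed the adjusted threshold; Itgam, Cx3cr1 and Mmp13 have the widest bars.

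The 8 genes with the smallest p in KO EAE against KO were all lower. Stab2 had a log2 change of -0.64 ± 0.08 (approximate SE), with an adjusted p of 0.267 by edgeR. Tnfrsf21 had -0.63 ± 0.10, Trpm2 -0.63 ± 0.12 and Sort1 -0.63 ± 0.12, with edgeR adjusted p-values of 0.358, 0.397 and 0.397. These 4 genes had nearly the same estimate, and both of their KO EAE libraries lay below both KO libraries. Marco had -1.31 ± 0.31, B3galnt1 -0.89 ± 0.23 and Slco2b1 -0.56 ± 0.15, and Fgf1 was at 0.489 of its KO mean, with edgeR adjusted p-values between 0.449 and 0.496. DESeq2 on the same counts called 7 of the 36, all lower, where it called 0.816% of the genes with an adjusted p lower and 0.423% higher. The 7 were Stab2, Trpm2, Tnfrsf21, Sort1, Marco, Slco2b1 and Fgf1; DESeq2 gave Stab2 a log2 change of -0.67 (adjusted p = 3.66e-05) and Marco -1.34 (adjusted p = 0.00868). The calls in KO EAE against KO therefore depend on the tool.

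By role, the channels and transporters were at 0.587 to 0.662 of their KO mean in KO EAE, the narrowest range of the groups with more than 2 genes. The scavenger and apoptotic cell receptors ran from 0.395 for Marco to 1.60 for Siglec1, whose log2 change of 0.71 was 0.05 without KO EAE replicate 2. The lysosome and sorting genes ran from 0.632 for Sort1 to 0.968 for Ctsd, and Apoe and Lpl were at 0.968 and 1.03. Ctsd, Apoe and Lpl were thus close to their KO level, while Marco, Sort1 and the channels and transporters were lower in both KO EAE libraries. The difference between these roles was not tested.

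The KO EAE libraries differed from each other more than those of the other groups. Replicate 2 was above replicate 1 for 34 of the 36 genes, as it was for 30 in KO and 24 in WT. In KO EAE the median log2 ratio of replicate 2 over 1 was 0.19 over the 36 and 0.00 over all genes tested. In KO it was 0.17 and -0.04. In KO EAE 5 of the 36 genes were more than 2-fold apart, against 10.8% of all genes tested. Itgam was 8.19-fold higher in replicate 2, Cx3cr1 5.25-fold, Mmp13 4.30-fold, Msr1 2.94-fold and Siglec1 2.19-fold. Of the 36, none was 2-fold apart between the KO libraries, against 4.62% of all genes tested. Between the WT libraries 3 were, against 4.83% of all genes tested. Without KO EAE replicate 1, the arm is 1 library, the one that stands apart, and its spread is taken from the other groups. EdgeR then called 2 of the 36 in KO EAE against KO, and 1.33% of all genes tested higher and 0.682% lower: Itgam, with a log2 change of 1.80 (adjusted p = 0.0465), and Stab2, with -0.61 (adjusted p = 0.0472). Without replicate 2 it called none of the 36 and 0.0529% of all genes higher, and Itgam had a log2 change of -1.24. The direction of Itgam in EAE thus rests on 1 library, while Stab2 was lower in both.

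In KO EAE against WT, 32 of the 36 genes rose and none fell by the edgeR test, where 7.41% of all genes tested rose and 1.95% fell. The KO EAE libraries took no part in the choice of genes, but the WT libraries did, and genes chosen for low values in WT favour higher values in any other group. Both KO EAE libraries lay above both WT libraries for 35 genes, against 32.9% of all genes tested, and below them for Gpnmb. The median log2 change was 3.10, against -0.01 over all genes tested. All 11 scavenger and apoptotic cell receptors rose, as did all 3 channels and transporters, both lipid genes and the 4 genes of other roles. Of the identity and surface receptors 8 of 10 rose, and of the lysosome and sorting genes 4 of 6.

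Among the receptors, Siglec1 rose by 4.88 ± 0.59 (log2, approximate SE; edgeR adjusted p = 0.00456), or by 4.22 without KO EAE replicate 2 (edgeR adjusted p = 0.00491), and Mertk by 3.82 ± 0.20 (edgeR adjusted p = 0.000181). Csf1r rose by 2.57 ± 0.14 (edgeR adjusted p = 0.000213) and Axl by 1.89 ± 0.10 (edgeR adjusted p = 0.000185). Gas6, the ligand, rose by 4.38 ± 0.39 (edgeR adjusted p = 0.00137). Mertk, Axl and their ligand Gas6 were thus all higher in KO EAE than in WT. The choice of genes for low values in WT favoured this direction, so these p-values are no independent test of the genes. Slco2b1 and B3galnt1 rose by 4.38 ± 0.19 and 4.49 ± 0.30, and Apoe by 1.17 ± 0.11.

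The 4 genes that did not pass in KO EAE against WT were Cx3cr1, with a log2 change of 2.59 ± 0.77 (edgeR adjusted p = 0.0975), Itgam, 2.68 ± 0.90 (0.129), Ctsd, 0.26 ± 0.08 (0.109), and Gpnmb, -0.21 ± 0.24 (0.623). Cx3cr1 and Itgam had a wide spread between the KO EAE libraries: their log2 changes were 0.95 and 0.48 without replicate 2 (edgeR adjusted p = 0.259 and 0.549) and 3.33 and 3.50 without replicate 1 (edgeR adjusted p = 0.00234 and 0.00123), which places them past the threshold. Ctsd had a narrow spread around a small change. When each library was left out in turn, 27 of the 32 kept their call throughout. Lyz2 lost it without WT replicate 2 (edgeR adjusted p = 0.0705), Cd36 without WT replicate 1 (0.0735), and Ctsb and Mmp13 without either WT replicate (0.0544 and 0.0575, 0.0725 and 0.118). Where a group is left with 1 library, that library is assumed to vary like the other groups. Msr1 lost it without WT replicate 1, WT replicate 2 or KO EAE replicate 2 (0.142, 0.226 and 0.105).

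Other genes of the same programmes were read from lists that hold none of the 36. These lists were drawn up with earlier results of these data known, so their counts are descriptions; Spic, Nr1h3 and Cd163 each stand in 2 of them. Of 12 macrophage transcription factors, 8 rose in KO EAE against WT and none fell, with a median log2 change of 3.15. Spi1, which encodes PU.1, was at 4.84 and 3.88 CPM in WT, 57.6 and 60.8 in KO, and 37.6 and 56.7 in KO EAE. Both WT libraries were the lowest for Spi1. Cebpb and Bach1, which T cells also express, had log2 changes of 0.05 and -0.11 and did not pass the test.

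Around the CSF1 receptor, 3 of 4 tested partners rose in KO EAE against WT and 1 fell. Csf2rb, the shared beta chain of the GM-CSF receptor, rose by 3.90 ± 0.48. Csf1, the ligand of Csf1r, was the one that fell, at 72.1 and 88.3 CPM in WT, 50.5 and 45.1 in KO, and 43.8 and 50.05 in KO EAE (log2 change -0.80 ± 0.12 in KO EAE against WT, edgeR adjusted p = 0.0102). Ligand and receptor thus differed from WT in opposite directions. Il34, the second ligand, was under 0.5 CPM in every library and was not tested.

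Of 19 tested other genes of apoptotic cell clearance, 10 rose and 1 fell in KO EAE against WT, with a median log2 change of 1.91. Lrp1, a large endocytic receptor, was at 33.1 and 29.9 CPM in WT, 491 and 614 in KO, and 494 and 532 in KO EAE. Pros1, the second TAM ligand, was the one that fell, at 30.5 and 37.6 CPM in WT, 14.8 and 21.8 in KO, and 17.6 and 16.0 in KO EAE (log2 change -1.04 ± 0.23, edgeR adjusted p = 0.0460). The TAM ligands Gas6 and Pros1 thus differed from WT in opposite directions. Tyro3, the third TAM receptor, was at 27.6 and 28.4 CPM in WT against 22.8 and 20.7 in KO EAE and did not pass the test (edgeR adjusted p = 0.126).

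Of 32 other lysosome genes, 13 rose in KO EAE against WT and none fell, with a median log2 change of 0.30. Ctsh, cathepsin H, rose most, by 3.15 ± 0.15, from 7.03 and 6.36 CPM in WT to 54.8 and 66.9 in KO EAE. Psap, the precursor of the saposins, was the most abundant of the list by read count and was at 240 and 240 CPM in WT against 287 and 312 in KO EAE, without passing the test. Of 11 tested other lipid genes, 4 rose and 1 fell. Lpcat2, a lysophospholipid acyltransferase, rose by 4.35 ± 0.22. In KO EAE against KO no gene of any of these lists passed the edgeR test, as for the 36.

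Of the red pulp and marginal zone markers, 7 of 8 rose in KO EAE against WT, with a median log2 change of 3.34; Cd209b did not pass (edgeR adjusted p = 0.117). Markers of other cells that a sort could hold were read in the same fit. Of 5 tested erythroid markers all 5 rose, and their summed level was 3.88 to 5.15 CPM in WT and 32.3 to 57.4 CPM in the other groups. The haemoglobin genes Hba-a1 and Hbb-bs were listed at 0 in all 6 libraries of the count table. In the normalized table described below, Hbb-bs, under an older symbol, had 44 and 151 reads in WT and 871 and 173 in KO. Hba-a1 had 0 there as well. Of 7 NK cell markers 4 rose: Klrb1c, Klrd1, Prf1 and Eomes. Of 9 dendritic cell markers 2 rose, Itgax and Batf3, of 10 B cell markers 1, Cd22, of 6 monocyte markers 1, Csf3r, and of 6 tested stromal markers 1, Pdgfrb. None of 7 tested neutrophil, 7 tested endothelial and 4 platelet markers passed. Of the 4 eosinophil and mast cell markers 1 rose, Ccr3, and of 5 tested plasma cell markers 1, Sdc1. Ccl21a, a defining stromal chemokine of lymphoid organs, was listed at 0 in all 6 libraries. Summed levels of dendritic cell markers were 190 to 199 CPM in WT, 278 and 331 in KO, and 252 and 241 in KO EAE, and those of B cell markers 44.1 and 47.1, 90.7 and 140, and 74.9 and 152. Those of NK cell markers were 70.2 and 80.1 CPM in WT and 141 to 237 CPM in the other groups, and those of eosinophil and mast cell markers 10.3 and 17.1 CPM in WT and 118 to 164 CPM in the other groups. The eosinophil and mast cell sum was mostly Ccr3. In KO replicate 1 Ccr3 had 2319 reads, beside 22 for Siglecf, 4 for Prg2 and 7 for Fcer1a. Ccr7 and Itgax gave most of the dendritic cell sum. Ccr7 had 2978 and 3063 reads in WT and 2639 and 2246 in KO. Itgax had 80 and 103 reads in WT and 1622 and 1801 in KO. The part that other cells in the sort have in the levels of the 36 genes was not tested.

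**Figure D3:**
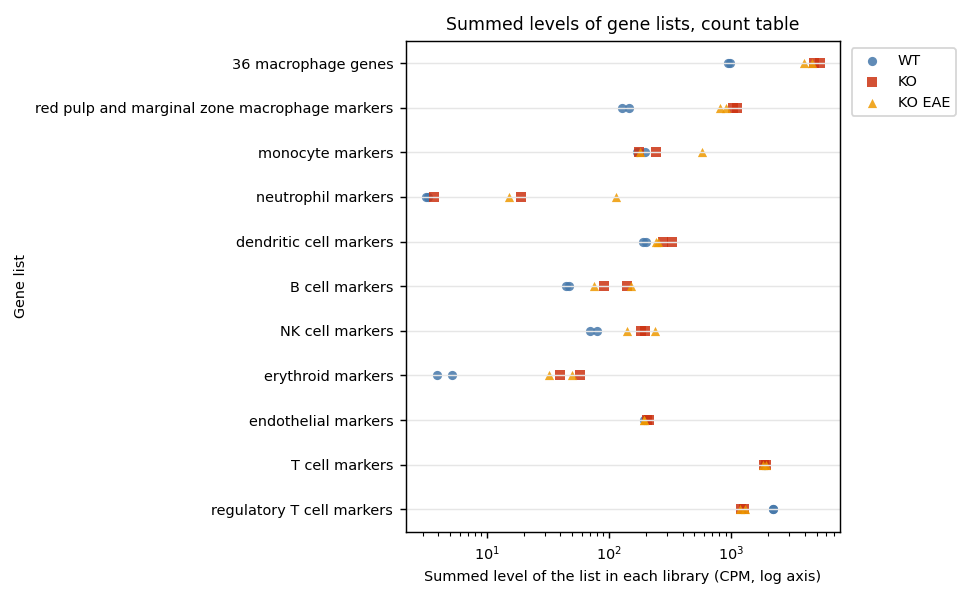
Summed level of the 36 genes and of 10 marker lists in each library of the count table, in CPM on a log axis; circles are WT, squares KO and triangles KO EAE. The macrophage, erythroid, dendritic cell, B cell, NK cell and neutrophil lists are lowest in both WT libraries, and the regulatory T cell list is highest in them. The T cell list stays between 1831 and 1918 CPM. KO EAE replicate 2 stands apart for the monocyte list at 574 CPM and the neutrophil list at 113 CPM.

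The authors also deposited a normalized table with WT and KO libraries only, under the same replicate names but with other values, so its libraries are described apart from those of the count table; the mean summed CPM of the T cell markers was 4.19 times higher in it. All 36 genes were found in it, 35 by symbol and Adgre1 under its older symbol. Together they took 2101 and 2753 CPM of the WT libraries and 4604 and 4015 CPM of the KO libraries. Without Ctsb and Ctsd, the largest contributors, the sums were 718 and 1165 CPM for WT against 2313 and 2006 for KO. The set was thus higher in KO in both tables, by a smaller factor here. The order of levels differed too. Per kilobase Mpeg1 stood above Ctsb in KO of the count table. Here Ctsb was at 1390 and 1203 CPM in KO and Mpeg1 at 33.9 and 23.9. Of the 35 genes tested, 33 had a smaller log2 change than in the count table; Ctsd and Lpl did not. The median log2 change, on the log2(signal + 1) scale, was 1.43 over the 35 and 0.00 over all genes tested.

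**Figure D4:**
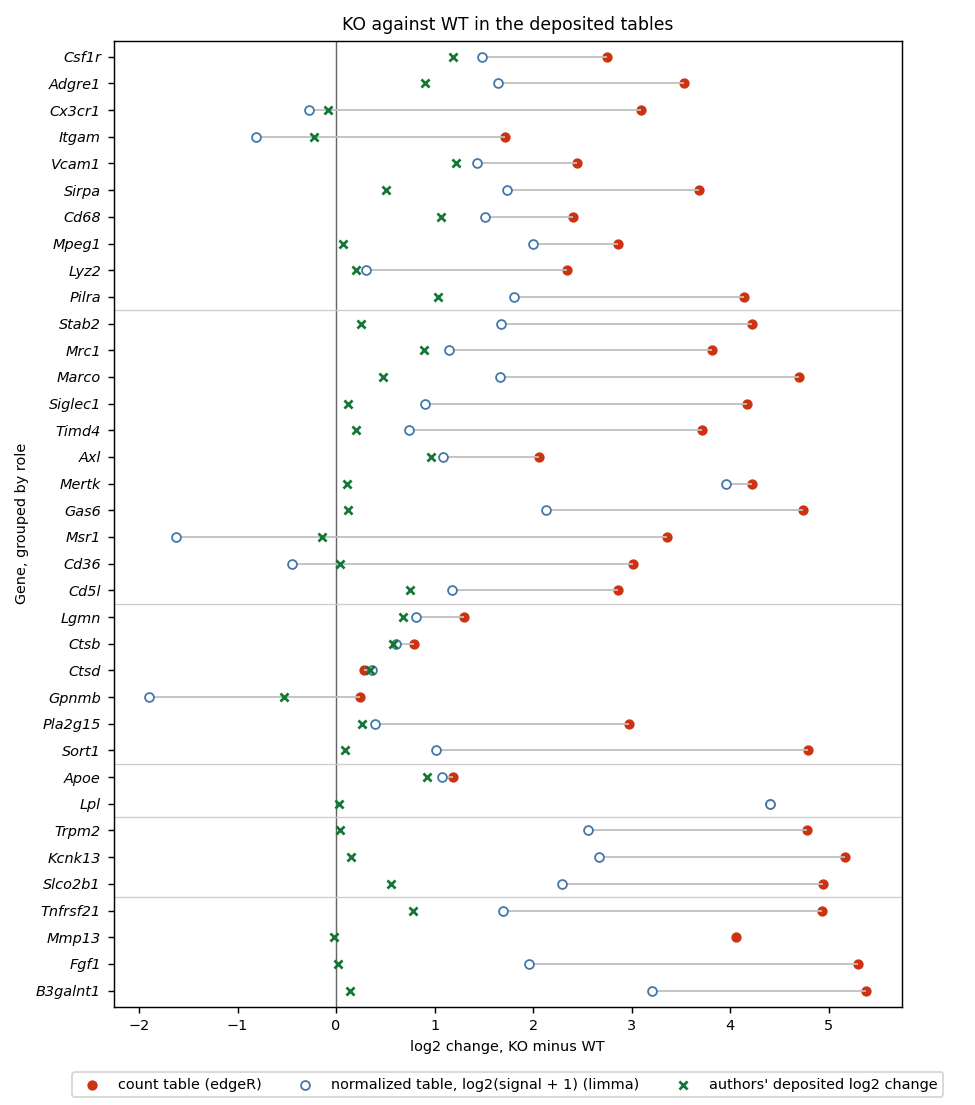
Log2 change in KO minus WT for each gene in the count table (filled circles, edgeR), the normalized table (open circles, limma on log2(signal + 1)) and the authors' deposited comparison (crosses), grouped by role; lines join the first and second. Open circles lie left of 0 for Cx3cr1, Itgam, Msr1, Cd36 and Gpnmb, and Mmp13 was too low in the normalized table to be tested.

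Both KO libraries lay above both WT libraries for 21 of the 35 genes in the normalized table, where 25.6% of all genes tested did, and below them for Itgam and Gpnmb, where 20% of all genes tested did. Since the genes were chosen on KO against WT, the counts of this table are descriptions too. In the limma fit 1 of the 35, Vcam1, and 0.14% of all genes tested were past the threshold in the higher direction; by edgeR on the recovered reads none was, with 0.0653% of its genes called higher and 0.0326% lower. The limma count was 8 without WT replicate 2, where 0.56% of all genes were called higher, 1 without WT replicate 1 (0.0656%), and 0 without either KO replicate (0%). Vcam1 was at 117 and 182 CPM in WT against 393 and 409 in KO. Csf1r was at 78.2 and 137 CPM in WT against 319 and 272 in KO, and Apoe at 130 and 184 and at 392 and 282. For these 3 genes the groups did not overlap.

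The sign differed between the tables for 5 genes. Itgam was at 4.44 and 5.92 CPM in WT against 2.61 and 3.37 in KO, a log2 change of -0.81. Gpnmb was at 15.8 and 2.83 CPM in WT against 1.78 and 1.83 in KO, a log2 change of -1.89. In Gpnmb and in Msr1, with 71 and 0 reads in WT and 1 and 5 in KO, the high value came from WT replicate 1 alone. Cx3cr1 was at 5.33 and 4.74 CPM in WT against 3.63 and 4.90 in KO, and Cd36 at 2.07 and 2.01 in WT and 4.78 and 0.457 in KO; these groups overlapped.

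The WT libraries of the normalized table were unlike each other in several of the 36 genes. For 29 of the 36 genes WT replicate 1 was the lowest of the 4 libraries. The choice of genes for low values in WT favours a WT library being lowest, and the share over all genes was not counted. In WT replicate 1, 4 genes, Lpl, Kcnk13, Fgf1 and B3galnt1, had no read. Mertk had 3 and 150 reads in the WT libraries and 388 and 681 in KO, Trpm2 6 and 361 against 325 and 504, and Sort1 31 and 311 against 276 and 280. In CPM, Trpm2 was at 18.6 in WT replicate 2, between the KO libraries at 12.8 and 20.9, and Sort1 was at 16.0, above the KO libraries at 10.9 and 11.6. This differed from the count table, where KO was 28.6-fold and 28.8-fold above WT. Mertk, Trpm2 and Sort1 were chosen for this account after their values were seen.

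In the authors' deposited table of KO against WT, 31 of the 36 genes had a log2 change above 0 and 5 below. An adjusted p was given for 28 of them and was under 0.05 for 13, all higher, in the contrast the choice used, where 1.71% of the genes with an adjusted p in the authors' deposited table were higher and under 0.05. The authors' deposited table gave Vcam1 a log2 change of 1.22, Csf1r 1.18, Cd68 1.06, Pilra 1.03, Axl 0.96 and Apoe 0.92. The authors' deposited table gave Trpm2 0.04 and Sort1 0.09, where the limma fit of the normalized table gave 2.56 and 1.013. Mertk was 0.11 and Lpl 0.03 in the authors' deposited table, where limma gave 3.96 and 4.41. The scales of the fits differ, and the sources used here do not say whether the authors' log2 changes were shrunken, so their sizes are not compared.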

How the data were processed

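Per the labels' protocols, RNA of sorted regulatory T cells was isolated on micro columns, made into NEBNext Ultra II libraries and read on a NextSeq500. HISAT2, HTSeq, DESeq2 and mm10 are named per the submitters' processing notes; the sources used here give no versions, annotation, counting mode or strand setting, and without strand the reads of overlapping or antisense genes cannot be told apart. The authors deposited raw counts per gene for 6 libraries, a normalized signal (counts divided by size factors) for 4 WT and KO libraries, and a comparison of KO with WT holding a log2 fold change, its standard error, a mean signal, a test score and p-values, per the file headers. Of the normalized values above 0, 100% were whole multiples of 1 read (tolerance 0.02), so whole reads were recovered; CPM of that table are from those reads, and edgeR on them called 12 genes. Rows naming no gene were left out (25 rows, at most 0.217% of a library, in the count table, and 27 rows, at most 0.284%, in the normalized table).

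Groups came from the genotype and condition labels. The 36 genes and all lists were chosen with earlier results of these data known. The test of the counts was edgeR 4.0.16 in R 4.3.3 (filterByExpr with minimum count 10 and minimum total count 15, TMM, glmQLFit and glmQLFTest over all 6 libraries without a block, 3 residual degrees of freedom, Benjamini-Hochberg over 14548 genes, threshold 0.05). The SE is approximate, the size of the change over the square root of F. The normalized signal was tested with limma 3.58.1 on log2(signal + 1), for genes with a mean signal of at least 10; this scale understates changes of low genes. DESeq2 1.42.0, other scalings, no filter, other pseudocounts, 2 groups only, a replicate block and leaving out each library were alternatives, and the scripts were tested on simulated data. Replicates were further apart than sampling noise: chi-square over its degrees of freedom was 16.5 for WT, 19.8 for KO and 32.0 for KO EAE. Floors cover counting error only. Positions and exon lengths are from GENCODE M21 (mm10), and promoters from RefSeq. Values by library are given for genes set by a rule: the 8 with the smallest p in KO EAE against KO, the 3 highest per kilobase, the largest and smallest change in KO, those whose sign differs between tables, and 11 central genes; from a list, the most abundant, most and least changed and any defining gene at 0. Other names were chosen after their values were seen. Some genes of the lists are not reported here by name.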

Additional observations from a re-analysis of the deposited data

How the results depend on the processing

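In KO EAE against KO the count of the 36 genes past the threshold was 0 by edgeR, 7 by DESeq2, and 0 to 2 when each library was left out. Of 360 single-gene values under the alternatives, 18 reversed. None of the 36 genes had passed by edgeR, so no reversal could fall on a gene that had. With each KO or KO EAE library left out in turn, the log2 change ran from -2.14 to 0.25 for Cx3cr1, -1.24 to 1.80 for Itgam, -0.54 to 0.33 for Lyz2, -0.65 to 0.025 for Gas6, -1.48 to 0.095 for Msr1 and -0.19 to 0.15 for Cd5l. It ran from -0.19 to 0.048 for Lgmn, -0.11 to 0.083 for Ctsd, -0.16 to 0.14 for Apoe, -0.26 to 0.49 for Lpl and -0.41 to 1.71 for Mmp13. With only the 2 groups it was 0.0042 for Cd5l. In KO EAE against WT none of 360 values reversed, and 28 to 34 genes passed when a library was left out, where 542 to 2105 of all genes rose. In the normalized table the count was 1, where 17 of all genes were called higher and 5 lower. It was 0 with a pseudocount of 0.5 (all genes 6 and 3), 3 with 10 (34 and 16), 0 without a filter on low values (1 and 0), 0 with edgeR on recovered reads, and 0 to 8 when a library was left out, with 8 without WT replicate 2. The summed level in WT was 761 CPM without Ctsb, the member with the most reads. The causes were not tested. With a replicate block, 0 of the 36 genes passed in KO EAE against KO, where 0% of all genes tested passed. In KO EAE against WT 31 passed, where 7.12% of all genes tested rose and 1.82% fell. In KO against WT, the contrast the choice used, it was 32 by the counts, where 8.9% of all genes tested were called higher. By the normalized signal it was 8, where 60 of all genes were then called higher and 30 lower. In the count table, replicate differences had correlations of 0.012 for WT and KO, -0.086 for WT and KO EAE, and 0.197 for KO and KO EAE. These values cannot decide whether the replicate numbers pair the libraries. At this depth genes under about 0.2 CPM could not be detected, which touches Mmp13 in WT.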
